A study of Mus musculus with 58 samples.

Results

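The 8 genes *Clec4a1*, *Clec4a2*, *Clec4a3*, *Clec4d*, *Clec4e*, *Clec4n*, *Clec5a* and *Clec12a* encode C-type lectin receptors of myeloid cells, and they were taken by name from the 47643 genes of 34 microglia libraries. All 8 were found in the tables and all 8 had enough counts to be tested in each of the 4 comparisons. The study asked how tau and the NF-κB kinase IKKβ (gene *Ikbkb*) change the microglial transcriptome, and its other 24 samples, from cortex, were not analysed here. In the tau comparison, primary microglia of wild-type mice received 2 µg/ml full-length wild-type tau fibrils (n = 4) or vehicle (n = 4) for 24 h. In the tauopathy comparison, microglia were isolated with CD11b beads from brains of male PS19 mice (n = 4), which carry human P301S tau, and of male non-transgenic NTG mice (n = 4). The PS19 mice and NTG mice 3 and 4 were 10.98 months old, and NTG mice 1 and 2 were 11.18 months old. In the third comparison, IkbkbCA microglia (n = 5) carried Cx3cr1CreERT2/+ and homozygous floxed-stop alleles of constitutively active IKKβ, and IkbkbWT microglia (n = 5) carried the same alleles without Cre. In the fourth, Ikbkb-/- microglia (n = 4) carried Cx3cr1CreERT2/+ and floxed *Ikbkb* on both chromosomes, and Ikbkb+/+ microglia (n = 4) carried the floxed alleles without Cre. These 4 genotypes were newborn cultures, and all of them, controls included, received 4-hydroxytamoxifen. In both Cre-carrying groups 1 *Cx3cr1* allele is replaced by CreERT2, so IKKβ status, Cre and the lost *Cx3cr1* allele cannot be told apart. The labels do not say whether the libraries of a culture group came from separate cultures, so the tests measure the spread between these libraries.

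C-type lectin receptors of this kind bind sugars, lipids and proteins on microbes and on dead or damaged cells, and they are found on macrophages, neutrophils, dendritic cells and microglia. Mincle (*Clec4e*), MCL (*Clec4d*) and Dectin-2 (*Clec4n*) have no signalling tail of their own and pair with the Fc receptor γ chain (*Fcer1g*), and MDL-1 (*Clec5a*) pairs with DAP12 (*Tyrobp*) or DAP10 (*Hcst*). These adaptors recruit the kinase Syk, and Card9, Bcl10 and Malt1 then relay the signal to IKK and NF-κB. DCIR (*Clec4a2*) and MICL (*Clec12a*) instead carry an inhibitory ITIM motif that recruits the phosphatases SHP-1 (*Ptpn6*) and SHP-2 (*Ptpn11*). *Clec4a1* and *Clec4a3* encode further receptors of the DCIR family.

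All 8 genes are protein coding and lie on chromosome 6 of GRCm38 in the GENCODE M21 annotation, and none shares exons with another gene. From *Clec4a1* (122921848 to 122934619, plus strand) to *Clec4e* (123281789 to 123289870, minus strand), 6 of them fall within 368 kb. Between these lie *Clec4a3* (122952515 to 122969875), *Clec4a2* (123106428 to 123143999), *Clec4n* (123229843 to 123247021) and *Clec4d* (123262111 to 123275265), all on the plus strand. *Clec5a* (40574894 to 40585821, minus strand) and *Clec12a* (129342691 to 129365303, plus strand) lie outside this cluster. *Clec4a1*, *Clec4a2* and *Clec4a3* are closely related genes, and reads from stretches they share could have been counted on either or left out, so their separate levels are less certain than those of the other 5.

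The RefSeq promoter windows (250 bases before to 50 after a start site, GRCm38.p6) of 7 members were searched, since the members moved together in different subsets. A window of *Clec4n* was not used here. The windows of 2 genes that were much higher with tau fibrils and not with active IKKβ (*Clec4a1*, *Clec4a3*) and of 2 that were higher with both (*Clec4e*, *Clec4d*) are shown 5′ to 3′ along the gene, with matches in capitals. They cover chr6:122921598-122921897, chr6:122952394-122952693, chr6:123289822-123290121 (minus strand) and chr6:123261857-123262156.
Clec4a1: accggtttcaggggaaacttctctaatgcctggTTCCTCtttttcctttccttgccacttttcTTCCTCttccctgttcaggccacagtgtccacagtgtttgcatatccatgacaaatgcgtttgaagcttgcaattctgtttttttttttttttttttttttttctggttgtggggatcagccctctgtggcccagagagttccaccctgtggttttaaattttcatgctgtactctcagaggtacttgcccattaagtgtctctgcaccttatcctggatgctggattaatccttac
Clec4a3: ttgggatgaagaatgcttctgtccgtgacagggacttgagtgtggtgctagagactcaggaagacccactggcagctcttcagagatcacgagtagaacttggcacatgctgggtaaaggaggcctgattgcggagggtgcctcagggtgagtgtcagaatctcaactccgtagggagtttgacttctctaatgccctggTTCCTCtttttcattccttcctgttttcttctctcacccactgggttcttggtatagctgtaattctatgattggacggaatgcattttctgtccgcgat
Clec4e: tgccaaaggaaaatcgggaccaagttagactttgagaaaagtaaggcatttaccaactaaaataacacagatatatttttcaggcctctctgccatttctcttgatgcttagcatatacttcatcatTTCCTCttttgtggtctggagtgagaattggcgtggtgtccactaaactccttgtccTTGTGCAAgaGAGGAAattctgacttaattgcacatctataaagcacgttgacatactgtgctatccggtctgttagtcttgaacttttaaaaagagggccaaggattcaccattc
Clec4d: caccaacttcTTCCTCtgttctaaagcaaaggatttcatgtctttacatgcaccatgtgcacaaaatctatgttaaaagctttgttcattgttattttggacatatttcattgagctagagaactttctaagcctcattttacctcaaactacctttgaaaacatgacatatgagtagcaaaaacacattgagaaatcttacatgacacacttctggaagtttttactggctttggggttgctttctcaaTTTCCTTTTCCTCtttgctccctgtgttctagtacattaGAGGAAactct
The motifs were the PU.1 core GAGGAA, the interferon-stimulated response element, the AP-1 site TGANTCA, the C/EBP site TTGCNNAA and the κB consensus, each on both strands. *Clec4a3* has a second window (chr6:122952265-122952564), which overlaps the one shown and held none of the motifs. The PU.1 core, read as TTCCTC on the other strand, was in the 4 windows shown and in those of *Clec5a* and *Clec12a*, and 28.3% of all 32851 windows hold it. The capitals of *Clec4e* also mark a C/EBP match (10.8% of windows), and those of *Clec4d* an interferon response element that overlaps a PU.1 core just after the start site (3.44% of windows). *Clec12a* held an AP-1 and a C/EBP match, and *Clec4a2* held an AP-1 match, which 7.81% of windows have. The κB consensus, found in 8.46% of all windows, was in none of the windows of the 7 genes. *Clec4a1* and *Clec4a3* shared a run of 17 bases around their PU.1 core (cctggttcctctttttc), the longest run shared between windows of different members.

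The libraries held 1672052 to 8349128 counts on genes, so that 1 count corresponded to 0.115 to 0.601 CPM. Levels are given as TMM-normalized CPM, the counts of a gene relative to the effective library size, with SD. The reads start near the 3′ end of transcripts and do not grow in number with gene length, so CPM values of different genes can be set side by side, apart from how well each 3′ end is captured. In the check of the targeted genes, *Ikbkb* was 22.9 ± 3.03 CPM in Ikbkb-/- against 52.2 ± 4.25 CPM in Ikbkb+/+ microglia and was called lower. It was 52.5 ± 6.36 in IkbkbCA and 46.9 ± 6.75 in IkbkbWT, with overlapping libraries, so this check did not show the activation. The active kinase comes from an inserted transgene, and whether its reads were counted on *Ikbkb* was not tested. The paper reports raised *Ikbkb* by RT-qPCR in IkbkbCA cultures. Summed microglial markers (10 of 10 detected in every group) were 4938 to 22583 CPM in cultures and 28929 to 43243 CPM in isolated microglia, but *Siglech* was at most 1.63 CPM and *P2ry12* at most 9.92 CPM in the tau cultures. IkbkbCA library 3 and PS19 library 1 stood apart in several members, and values without them are given where a result rests on them.

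Each group had its own mixture of these receptors. In isolated NTG microglia *Clec5a* (156 ± 49.5 CPM, n = 4) and *Clec4a2* (114 ± 25.6 CPM) were the highest, with a mean of 40.5% and 30.2% of the counts of the 8 genes, while *Clec4d* (8.56 ± 1.18 CPM) and *Clec4e* (4.06 ± 1.48 CPM) were low. In vehicle-treated cultures *Clec4d* (167 ± 21.3 CPM) alone took 66.9% of these counts. IkbkbWT cultures were led by *Clec4n* (93.8 ± 7.26 CPM, 31.8%), followed by *Clec4d* (56.1 ± 9.76 CPM) and *Clec12a* (49.6 ± 12.4 CPM). *Clec4e* was the lowest member in 7 of the 8 groups, at 2.37 to 4.90 CPM outside the tau-treated and IkbkbCA cultures; in IkbkbCA cultures, where it was 116 ± 150 CPM, *Clec4a3* was the lowest. Summed over the 8 genes, the level was 250 ± 19.8 CPM with vehicle, 295 ± 21.6 in IkbkbWT, 297 ± 11.3 in Ikbkb+/+ and 379 ± 82.1 in NTG microglia. It was 1369 ± 46.9 CPM with tau fibrils, 1018 ± 443 in IkbkbCA, 214 ± 26.6 in Ikbkb-/- and 316 ± 73.6 in PS19 microglia. These sums are descriptions, since experiments differ in age, culture and preparation.

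**Figure D1:**
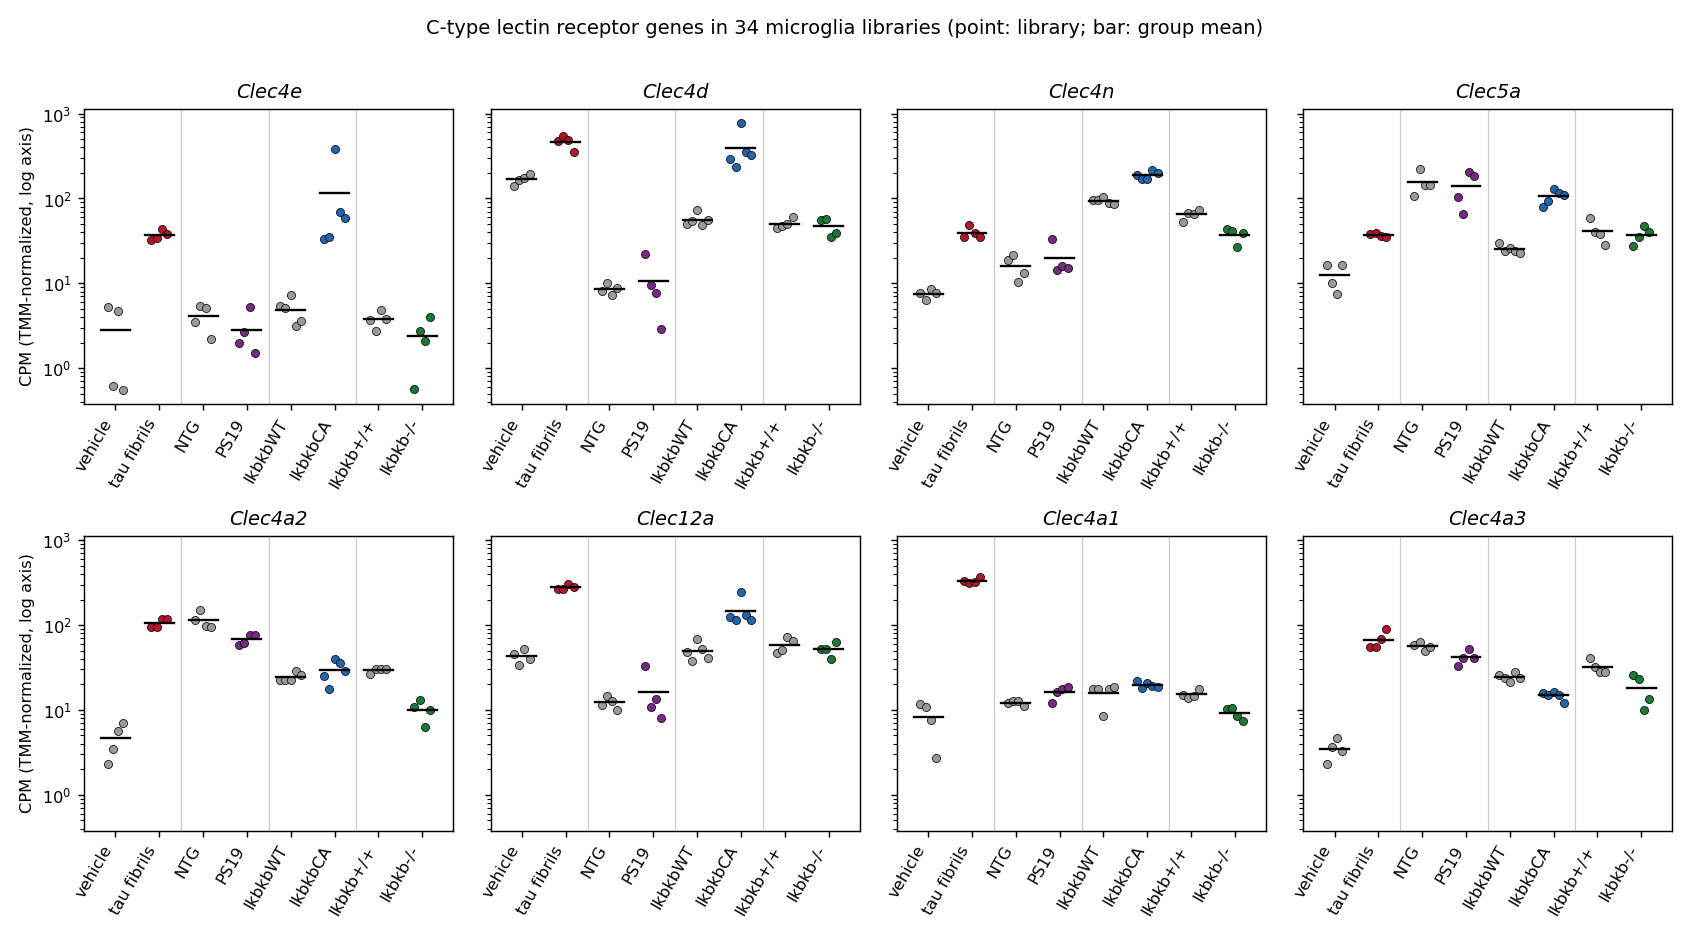
Level of each of the 8 genes in every library, as TMM-normalized CPM on a log axis; points are libraries (4 or 5 per group), horizontal bars are group means, grey points are the control groups, and vertical lines separate the 4 experiments. Every tau-treated library lies above every vehicle library for all 8 genes, while PS19 and NTG libraries overlap for 7 of the 8.

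**Figure D2:**
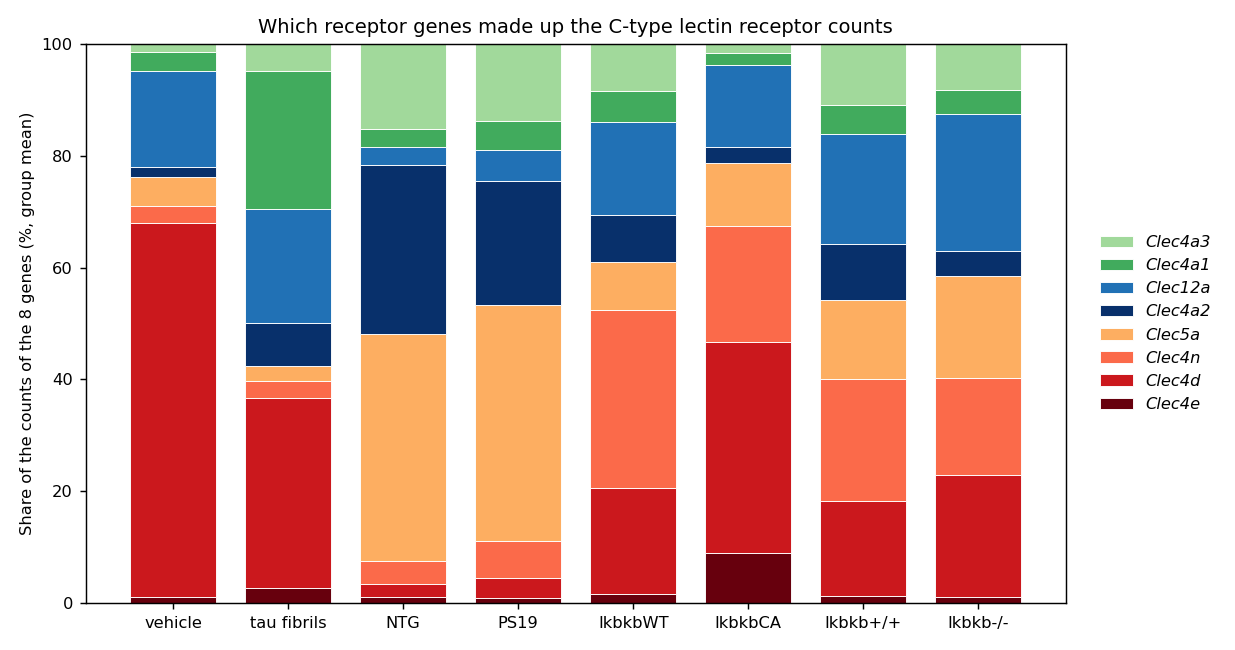
Share of the counts of the 8 genes taken by each gene (%, mean of the libraries of a group), 1 stacked bar per group. *Clec4d* takes 66.9% with vehicle and 34.0% with tau fibrils, and *Clec5a* and *Clec4a2* lead in NTG and PS19 microglia.

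In order of level, *Clec4a1* was highest with tau fibrils (336 ± 26.3 CPM), with no overlap with the next group, IkbkbCA (19.7 ± 1.57 CPM), and its other 6 groups lay between 8.23 and 16.2 CPM. For *Clec12a* the tau-treated (279 ± 18.2 CPM) and IkbkbCA groups (146 ± 56.3 CPM) overlapped neither each other nor the rest, and the next 4 groups, all cultures, overlapped their neighbours between 43.1 and 59.0 CPM. *Clec4n* was highest in IkbkbCA (189 ± 20.5 CPM), IkbkbWT and Ikbkb+/+ (64.8 ± 8.58 CPM), with no overlap between these neighbours, and lowest with vehicle (7.51 ± 0.91 CPM). *Clec4a2* was highest in NTG and tau-treated microglia, which overlapped, and *Clec4a3* fell in overlapping steps from tau-treated (67.1 ± 16.2 CPM) to IkbkbCA microglia (14.9 ± 1.71 CPM), with vehicle (3.5 ± 0.99 CPM) below all others. *Clec4d* was highest in tau-treated (467 ± 83.1 CPM) and IkbkbCA microglia (397 ± 221 CPM), which overlapped, and lowest in PS19 and NTG microglia, which overlapped too. *Clec5a* was highest in NTG, PS19 and IkbkbCA microglia, which overlapped as neighbours and lay apart from the other 5 groups, and lowest with vehicle (12.6 ± 4.45 CPM).

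The first comparison asked how microglia respond to tau fibrils. All 8 receptor genes rose and 0 fell at an FDR below 0.05 (edgeR, quasi-likelihood; Benjamini-Hochberg over 10408 genes; n = 4 and 4), where 14.5% of all tested genes were called higher and 15.4% lower. Their median log2 fold change was 3.35, against -0.01 over all tested genes, and the groups did not overlap for any of the 8, as for 28.3% of all tested genes. The DCIR family members rose most: *Clec4a1* ranked 17 of 10408 by log2 fold change. In bulk libraries, fewer cells of a type and less RNA per cell cannot be told apart.

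Among the DCIR family genes, *Clec4a1* was 332, 316, 320 and 374 CPM in the tau-treated libraries and 11.7, 11.0, 7.57 and 2.73 CPM in the vehicle libraries. The means differed 40.8-fold, and the log2 fold change was 5.26 ± 0.21 (SE; adjusted p = 4.73e-17). The vehicle values spread widely, from 5 to 54 counts, but all lay far below the treated ones. The inhibitory receptor gene *Clec4a2* was 94.9, 94.3, 119 and 118 CPM with tau fibrils and 2.33, 3.46, 5.68 and 7.09 CPM with vehicle, a log2 fold change of 4.57 ± 0.24 (adjusted p = 8.28e-15). *Clec4a3* was 54.7, 55.9, 68.3 and 89.7 CPM against 2.33, 3.66, 4.73 and 3.27 CPM, a log2 fold change of 4.21 ± 0.26 (adjusted p = 3.16e-13). For both genes the vehicle libraries held only 4 to 18 counts. *Clec12a*, the other inhibitory receptor, was 265, 264, 302 and 284 CPM with tau fibrils and 45.5, 34.1, 53.0 and 39.8 CPM with vehicle, with a log2 fold change of 2.71 ± 0.15 (adjusted p = 3.1e-14).

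Among the genes of activating receptors, *Clec4e* was 32.4, 34.3, 44.1 and 38.4 CPM with tau fibrils, from 54 to 111 counts, and 5.25, 0.61, 4.73 and 0.545 CPM with vehicle, from 9, 3, 10 and 1 counts. Vehicle libraries 2 and 4 held almost no reads of this gene, and the log2 fold change of 3.98 ± 0.39 (adjusted p = 4.86e-09) was 3.39 to 4.48 when single libraries were left out. *Clec4d*, its neighbour, was already high with vehicle, at 141, 165, 173 and 192 CPM, and reached 479, 550, 487 and 352 CPM with tau fibrils, a log2 fold change of 1.48 ± 0.14 (adjusted p = 4.34e-09). *Clec4n* was 35.4, 48.3, 39.3 and 35.2 CPM against 7.58, 6.30, 8.51 and 7.64 CPM, a log2 fold change of 2.43 ± 0.23 (adjusted p = 4.09e-09). *Clec5a* was 38.4, 39.7, 36.5 and 34.7 CPM against 16.3, 10.2, 7.57 and 16.4 CPM, a log2 fold change of 1.61 ± 0.24 (adjusted p = 5.87e-06). With these changes *Clec4a1* went from 3.40% to 24.6% of the counts of the 8 genes, and *Clec4d* from 66.9% to 34.0%.

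Marker levels of cell types moved with the same groups. Summed microglial markers were 11408 to 13002 CPM with tau fibrils and 4938 to 6357 CPM with vehicle. Of 9 tested markers 5 rose and 0 fell, with a median log2 fold change of 1.08. Markers of border-associated macrophages summed to 977 to 1159 CPM against 205 to 281 CPM (5 of 6 detected in each group), with *Cd163* at most 0.90 CPM and *Lyve1* at most 0.58 CPM in any of these libraries. Of these markers 2 of 2 tested rose, with a median log2 fold change of 1.51. Astrocyte markers (4 of 4 detected) summed to 254 to 293 CPM with tau fibrils and 416 to 467 CPM with vehicle, and neuron markers (4 of 4) to 50.4 to 62.2 and 97.0 to 118 CPM. Monocyte markers (4 of 6 detected with tau fibrils, 3 of 6 with vehicle; *Ly6c2* and *Chil3* at 0 in both and *Ccr2* at 0 with vehicle) summed to 284 to 357 CPM with tau fibrils and 408 to 574 CPM with vehicle, and 2 of 2 tested markers fell. Granulocyte markers were 3.66 to 8.99 CPM in all 8 libraries, with *Ly6g* and *Retnlg* at 0, and dendritic cell markers at most 7.93 CPM. Tau-treated libraries had 16.3 to 22.2% of reads outside genes, against 23.3 to 29.1% in vehicle libraries. The part of these markers and of this share in the rise of the receptors was not tested.

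The signalling partners of the receptors changed in part. Of 20 partner genes, chosen by their known roles, 17 were tested with tau fibrils, of which 10 rose and 1 fell (median log2 fold change 0.56). Over all tested genes, 14.5% were called higher and 15.4% lower. The γ chain gene *Fcer1g* was 1838 ± 214 CPM with tau fibrils against 403 ± 19.2 CPM with vehicle, and its log2 fold change was 2.19 ± 0.13 (adjusted p = 1.36e-13). The DAP12 gene *Tyrobp* instead changed by less than its SE of 0.15 on the log2 scale and did not pass (adjusted p = 0.57). The Src family kinase gene *Lyn* (1.38 ± 0.13) rose, as did the phosphatase gene *Ptpn6* (1.95 ± 0.14) and *Syk* (1.05 ± 0.17). *Fyn*, another Src family kinase gene, fell (-0.62 ± 0.14). *Card9* was too low to be tested, at 0.65 ± 0.85 CPM in the treated and 0.83 ± 1.07 CPM in the vehicle cultures. Of 25 other C-type lectin genes only 7 had enough counts, of which 5 rose and 0 fell. They were *Cd69* (3.98 ± 0.44), an early activation antigen, *Cd72* (3.5 ± 0.16), *Clec2d* (3.05 ± 0.62), *Cd302* (1.55 ± 0.27) and Dectin-1 (*Clec7a*, 0.52 ± 0.13).

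**Figure D3:**
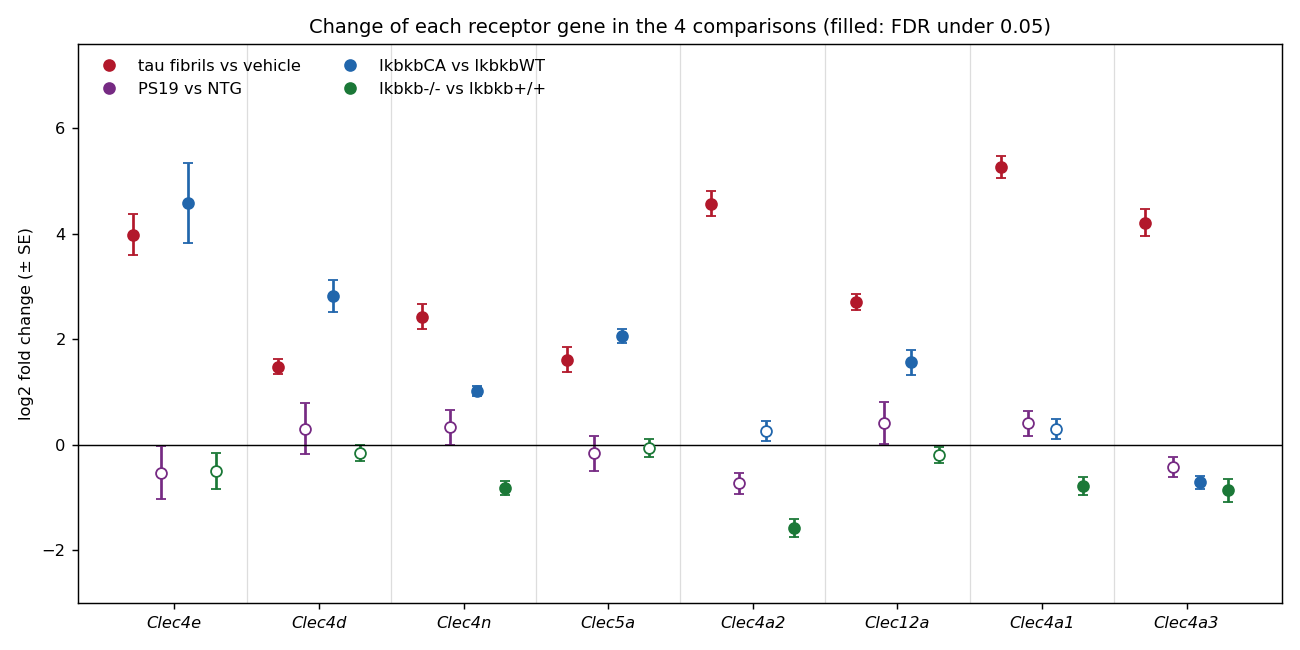
Log2 fold change (± SE) of each of the 8 genes in the 4 comparisons, as estimated by edgeR; filled points passed an FDR of 0.05 over all genes tested and open points did not. All 8 points for tau fibrils are filled and above 0, none of the PS19 points is filled, and the Ikbkb-/- points that are filled lie below 0.

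The IkbkbCA comparison asked what constitutive IKKβ activity does on its own. Of the 8 receptor genes 5 rose and 1 fell in IkbkbCA microglia (edgeR quasi-likelihood test; n = 5 and 5), where 7.31% of 11697 tested genes were called higher and 7.16% lower. Their median log2 fold change was 1.29, against -0.05 over all tested genes. The groups did not overlap for these 6 genes, as for 12.7% of all tested genes. All 4 genes of activating receptors were among those that rose, with *Clec12a* as the fifth, and the 3 DCIR family genes *Clec4a1*, *Clec4a2* and *Clec4a3* did not.

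*Clec4e* was 33.3, 34.7, 384, 68.4 and 58.8 CPM in IkbkbCA and 5.37, 5.08, 7.31, 3.14 and 3.57 CPM in IkbkbWT libraries. IkbkbCA library 3 was far above the other 4, which still lay above every control library. The log2 fold change was 4.58 ± 0.76 (adjusted p = 0.00173) and 3.36 ± 0.29 (adjusted p = 3e-05) without that library. *Clec4d* was 288, 237, 785, 349 and 326 CPM against 50.2, 53.9, 72.9, 48.5 and 55.0 CPM, a log2 fold change of 2.82 ± 0.30 (adjusted p = 8.66e-05), and 2.44 ± 0.14 without library 3. *Clec5a* was 78.7, 93.4, 129, 117 and 110 CPM against 30.1, 23.8, 25.8, 24.3 and 22.8 CPM, a log2 fold change of 2.06 ± 0.14 (adjusted p = 4.43e-06). Its values were even within both groups, and it ranked 15 of 11697 genes by p. *Clec4n* was 189, 170, 170, 218 and 199 CPM against 96.2, 95.4, 104, 87.2 and 86.2 CPM, with a log2 fold change of 1.01 ± 0.09 (adjusted p = 2.56e-05).

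Of the inhibitory receptors, *Clec12a* was 123, 115, 246, 130 and 116 CPM in IkbkbCA and 47.6, 37.4, 69.2, 52.6 and 41.2 CPM in IkbkbWT microglia, with library 3 again the highest. Its log2 fold change was 1.56 ± 0.24 (adjusted p = 0.000939), and 1.31 ± 0.15 (adjusted p = 0.000222) without library 3. *Clec4a2* was 24.8, 17.6, 40.3, 35.5 and 28.5 CPM against 22.4, 22.8, 22.3, 29.1 and 25.5 CPM, and its log2 fold change of 0.27 ± 0.19 did not pass (adjusted p = 0.429). *Clec4a1* was 18.2 to 21.9 CPM against 8.46 to 18.7 CPM (0.30 ± 0.19, adjusted p = 0.355). *Clec4a3* fell, from 25.5, 23.6, 21.2, 28.3 and 24.1 CPM to 16, 15.2, 16.4, 15.1 and 12.0 CPM, a log2 fold change of -0.71 ± 0.12 (adjusted p = 0.00183), with every IkbkbCA library below every IkbkbWT library.

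Marker levels moved with IkbkbCA as well. Summed microglial markers were 13907 to 22583 CPM in IkbkbCA and 11555 to 15816 CPM in IkbkbWT, with 3 of 10 markers higher and 1 lower. Monocyte markers summed to 119 to 632 CPM in IkbkbCA, with library 3 the highest, and to 44.4 to 89.4 CPM in IkbkbWT (6 and 5 of 6 detected, *Chil3* at 0 in IkbkbWT). Granulocyte markers summed to 17.3 to 85.5 and 7.50 to 14.4 CPM (7 and 6 of 7 detected, *Ly6g* at 0 in IkbkbWT). Markers of border-associated macrophages summed to 1117 to 1755 CPM in IkbkbCA and 847 to 1243 CPM in IkbkbWT (6 of 6 detected in both). The sum hides a fall of most of them: 1 of 5 tested markers was higher and 3 lower, with a median log2 fold change of -2.66. The share of reads outside genes started at 12.4% in IkbkbCA libraries, all of which lay below the 15.9 to 18.7% of IkbkbWT libraries. Libraries also differed alike in both groups: oligodendrocyte markers peaked in library 3 (1499 CPM in IkbkbCA and 4387 CPM in IkbkbWT), and neuron markers were 56.3 to 84.2 CPM in libraries 4 and 5 and 3.25 to 20.6 CPM in libraries 1 to 3. IkbkbWT library 3 was likewise the highest of its group in *Clec4d*, *Clec4e* and *Clec12a*. With the oligodendrocyte or the neuron marker level as a covariate, and with library 3 of both groups left out, 5 members were called higher and 1 lower each time, and *Clec4e* was at 4.44, 4.54 and 3.54 on the log2 scale; these fits were chosen after seeing the data. The part of the other markers and of the share of reads outside genes in the changes of the receptors was not tested. The Y-linked gene *Ddx3y* was 145 to 173 CPM in IkbkbWT libraries 1 to 3, 1.16 and 2.08 CPM in libraries 4 and 5, and 48.9 to 85.8 CPM in IkbkbCA, so the groups differed in the level of this gene of male cells. With its level as a covariate, 5 members were again called higher and 1 lower. *Cx3cr1* was 1192 ± 74.9 CPM in IkbkbCA and 1763 ± 196 CPM in IkbkbWT microglia.

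Of the 20 partner genes, all of which were tested, 4 rose and 2 fell in IkbkbCA microglia (median log2 fold change 0.11). Over all tested genes, 7.31% were called higher and 7.16% lower. The kinase gene *Fgr* (2.92 ± 0.59, from at most 7 counts to 9 to 30 counts) rose, as did *Bcl10* (0.57 ± 0.11), and the exchange factor gene *Vav3* fell (-1.57 ± 0.11). *Fcer1g* (0.09 ± 0.11), *Tyrobp* (0.10 ± 0.11), *Syk* (0.13 ± 0.13), *Card9* (-0.66 ± 0.30) and *Ptpn6* (0.35 ± 0.12, adjusted p = 0.0719) did not pass the test. Of 25 other lectin genes 9 were tested, 3 rose and 2 fell. *Cd69* (4.74 ± 0.47), the oxidized LDL receptor gene *Olr1* (3.16 ± 0.44) and *Cd72* (1.84 ± 0.35) rose, while the galactose-type lectin gene *Clec10a* (-2.52 ± 0.38) and the mannose receptor gene *Mrc1* (-2.07 ± 0.14) fell. *Clec7a* was 557 ± 50.9 and 544 ± 34.9 CPM and did not pass (adjusted p = 0.853).

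Tau fibrils and active IKKβ were then compared by testing the difference between their effects in 1 fit of the 18 libraries, in which 9.42% of 12841 genes were called in either direction. Of the 8 members 5 had a larger effect of tau fibrils, 1 had a larger effect of active IKKβ, and 2 did not pass. The DCIR family genes differed most, by 4.91 ± 0.32 for *Clec4a1* (adjusted p = 5.94e-09), 4.86 ± 0.27 for *Clec4a3* (adjusted p = 4.42e-10) and 4.22 ± 0.33 for *Clec4a2* (adjusted p = 6.03e-08) on the log2 scale. Their levels in the control groups differed too, at 8.23, 3.5 and 4.64 CPM with vehicle and 16, 24.5 and 24.4 CPM in IkbkbWT microglia. The effect of tau fibrils was also larger for *Clec4n* (1.34 ± 0.19, adjusted p = 9.17e-05) and for *Clec12a* (1.07 ± 0.30, adjusted p = 0.0296). *Clec4n* started far lower in the vehicle group (7.51 CPM) than in IkbkbWT microglia (93.8 CPM). Its mean after tau treatment, 39.6 CPM, was still below that of untreated IkbkbWT microglia. For *Clec12a* these 2 control groups overlapped (means of 43.1 and 49.6 CPM). The *Clec12a* call was lost without vehicle library 2 (0.97, adjusted p = 0.0737), vehicle library 4 (adjusted p = 0.0553), IkbkbCA library 4 (adjusted p = 0.0538) or IkbkbCA library 5 (adjusted p = 0.055). For *Clec4d* the effect of active IKKβ was larger, with a difference of -1.42 ± 0.36 (adjusted p = 0.0158), and -0.97 ± 0.21 without IkbkbCA library 3. Here the vehicle group started higher (167 CPM) than IkbkbWT microglia (56.1 CPM). The levels reached overlapped, with means of 467 CPM after tau treatment and 397 CPM in IkbkbCA microglia. The part of the control levels in these differences was not tested. The differences for *Clec4e* (-0.66 ± 1.26, adjusted p = 0.798) and *Clec5a* (-0.52 ± 0.26, adjusted p = 0.23) did not pass, and that for *Clec4e* was 0.63 ± 0.60 without IkbkbCA library 3 (adjusted p = 0.56).

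**Figure D4:**
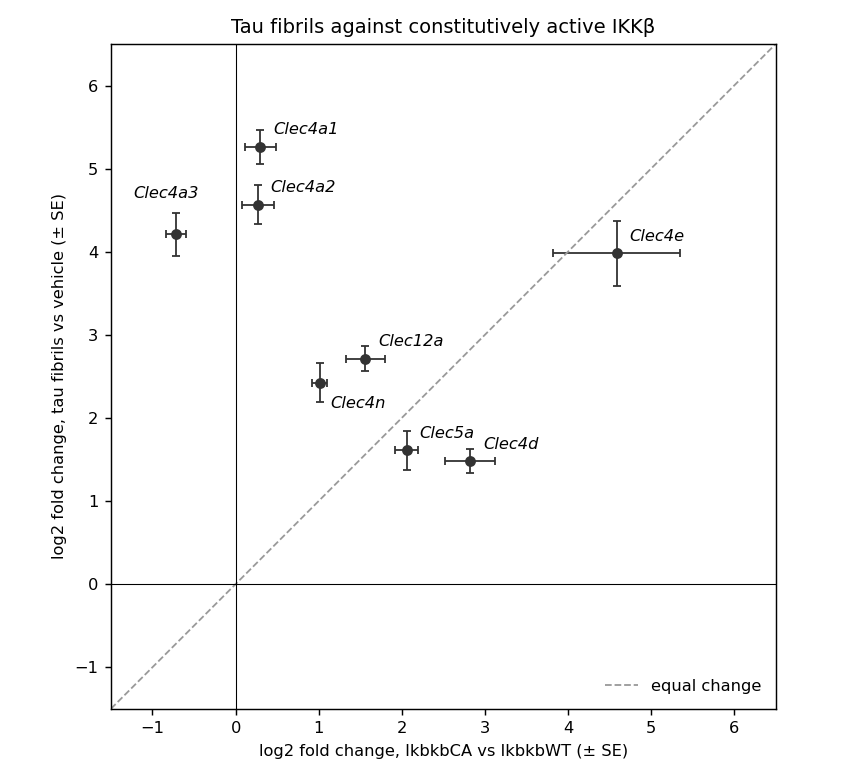
Log2 fold change (± SE) of each of the 8 genes with tau fibrils against vehicle (vertical axis) and in IkbkbCA against IkbkbWT microglia (horizontal axis); the dashed line marks equal change. *Clec4a1*, *Clec4a2* and *Clec4a3* lie above 4 on the tau axis and below 0.5 on the IkbkbCA axis, and *Clec4d* lies below the line.

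The Ikbkb-/- comparison asked what the loss of IKKβ does in cultures without added tau. Of the 8 receptor genes 4 were called lower and 0 higher in Ikbkb-/- microglia (edgeR quasi-likelihood test; n = 4 and 4), where 7.64% of 11242 tested genes were called higher and 6.96% lower. The median log2 fold change was -0.64, against 0.00 over all tested genes. All 4 lost their call with the level of *Ddx3y* as a covariate (0 members called). Most calls were lost in that fit, which called 1.03% of all tested genes higher and 1.56% lower. *Ddx3y* was 156 to 178 CPM in Ikbkb-/- and 34.9 to 70.8 CPM in Ikbkb+/+ libraries, and the X-linked *Xist* 5.69 to 10.7 and 248 to 399 CPM. The groups did not overlap in either gene, so the sex of the cells and the genotype cannot be told apart. The 4 genes were the 3 DCIR family genes and *Clec4n*, and their groups did not overlap, as for 18.1% of all tested genes.

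*Clec4a2* was 10.7, 13.1, 6.33 and 9.95 CPM in Ikbkb-/- and 26.5, 30.5, 30.7 and 30.5 CPM in Ikbkb+/+ libraries. It was 2.95-fold lower, a log2 fold change of -1.57 ± 0.17 (adjusted p = 3.02e-06), and -1.43 ± 0.46 with *Ddx3y* (adjusted p = 0.12). *Clec4a3* was 26, 23, 10.1 and 13.6 CPM against 40.6, 32.0, 27.9 and 27.9 CPM, a log2 fold change of -0.87 ± 0.22 (adjusted p = 0.0109). It was -1.85 ± 0.54 with *Ddx3y* (adjusted p = 0.0806), and -0.75 ± 0.23 without Ikbkb-/- library 4 (adjusted p = 0.0501). *Clec4n* was 43.5, 40.9, 26.7 and 38.9 CPM against 52.6, 68.0, 66.3 and 72.5 CPM, a log2 fold change of -0.82 ± 0.13 (adjusted p = 0.000295), and -0.43 ± 0.37 with *Ddx3y* (adjusted p = 0.661). *Clec4a1* was 10.2, 10.5, 8.44 and 7.37 CPM against 14.9, 13.9, 14.7 and 17.9 CPM, a log2 fold change of -0.79 ± 0.17 (adjusted p = 0.00401), and -0.46 ± 0.50 with *Ddx3y* (adjusted p = 0.736). With the covariate the estimate for *Clec4a3* was thus further from 0 and those for the other 3 genes nearer to 0, all with a larger SE.

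**Figure D5:**
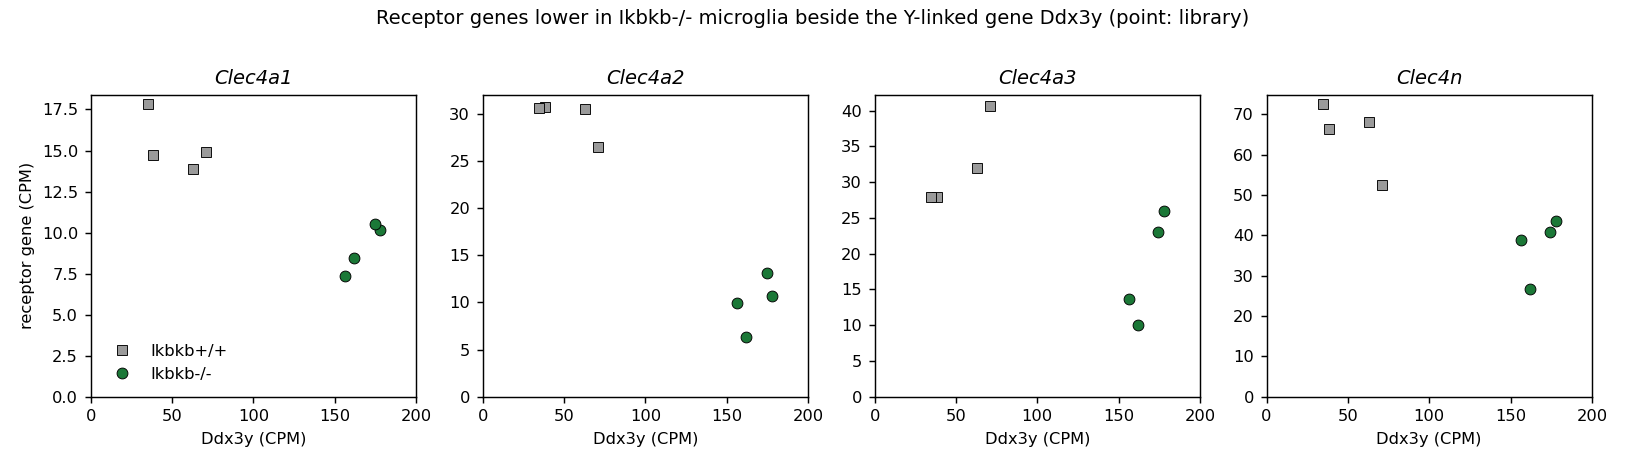
Level (CPM) of the 4 receptor genes called lower in Ikbkb-/- microglia (vertical axes, from 0) against the level of the Y-linked gene Ddx3y (CPM, horizontal axes); squares are the 4 Ikbkb+/+ libraries and circles the 4 Ikbkb-/- libraries. The groups are apart on both axes in every panel, with Ddx3y at 34.9 to 70.8 CPM in Ikbkb+/+ and 156 to 178 CPM in Ikbkb-/- libraries.

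The other 4 members, which include 3 of the 4 activating receptors, did not pass the test. *Clec4d* was 56.5, 57.3, 34.7 and 39.1 CPM in Ikbkb-/- and 44.4, 47.2, 50.6 and 60.3 CPM in Ikbkb+/+ libraries (-0.15 ± 0.15, adjusted p = 0.566). *Clec5a* was 27.7 to 47.1 CPM against 28.6 to 58.2 CPM (-0.06 ± 0.18, adjusted p = 0.866), and *Clec12a* 39.8 to 63.6 CPM against 47.4 to 72.9 CPM (-0.20 ± 0.15, adjusted p = 0.427). *Clec4e* was low in both groups, at 0.565 to 4.06 and 2.74 to 4.79 CPM from 1 to 29 counts (-0.50 ± 0.35, adjusted p = 0.391). Granulocyte markers summed to 426 CPM in the highest Ikbkb+/+ library, with a median of 70.3 CPM, and to at most 15.6 CPM in Ikbkb-/- libraries. Border-associated macrophage markers summed to 836 to 978 CPM in Ikbkb+/+ and 693 to 863 CPM in Ikbkb-/- microglia (6 of 6 detected). Here too the sum hides a fall of most of them: 1 of 5 tested markers was higher and 4 lower, with a median log2 fold change of -1.87. Of 10 microglial markers 2 were higher and 4 lower, and *P2ry12* was 111 to 498 CPM in Ikbkb+/+ and 133 to 147 CPM in Ikbkb-/- libraries. These 10 include *Cx3cr1*, of which Ikbkb-/- cells lack 1 allele. It was 1818 to 2917 CPM in Ikbkb+/+ and 965 to 1168 CPM in Ikbkb-/- libraries. Oligodendrocyte markers (4 of 4 detected) summed to 183 to 277 CPM in Ikbkb+/+ and 360 to 423 CPM in Ikbkb-/- libraries, with 3 of 4 higher. Dendritic cell markers summed to 8.46 to 11.2 CPM in Ikbkb+/+ (5 of 6 detected) and 2.82 to 6.08 CPM in Ikbkb-/- libraries (2 of 6 detected, *Flt3*, *Xcr1*, *Itgae* and *Ccr7* at 0). The part of these markers in the lower receptor levels was not tested.

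Of 19 partner genes tested in Ikbkb-/- microglia, 2 rose and 1 fell, and none of these calls was left with *Ddx3y* as a covariate. Over all tested genes, 7.64% were called higher and 6.96% lower, so the partner counts were near that share. With *Ddx3y* as a covariate these shares were 1.03% and 1.56%. *Fcer1g* went from 1076 ± 41.3 to 1368 ± 90.1 CPM (0.35 ± 0.08), the phospholipase gene *Plcg2* rose (0.44 ± 0.12) and *Vav3* fell (-0.88 ± 0.14). *Tyrobp* (0.20 ± 0.08, adjusted p = 0.0906), *Syk* (0.18 ± 0.10), *Card9* (-0.44 ± 0.36) and *Ptpn6* (0.22 ± 0.11) did not pass. Of 8 other lectin genes tested, *Cd72* rose (2.29 ± 0.20), and *Clec10a* (-1.77 ± 0.30), *Mrc1* (-1.55 ± 0.17) and the scavenger receptor gene *Colec12* (-0.36 ± 0.11) fell. With *Ddx3y* as a covariate 1 of these genes was called higher and 0 lower. *Clec7a* was 559 ± 35.4 and 609 ± 36.1 CPM (adjusted p = 0.346).

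The effects of IKKβ activation and deletion were compared in 1 fit of their 18 libraries, in which 3.12% of 12352 genes were called in either direction. For 7 of the 8 members the effect of activation was the higher, the exception being *Clec4a3*, which was lower than its control with both genotypes (difference 0.16 ± 0.28, adjusted p = 0.853). The difference was 5.10 ± 1.18 for *Clec4e* (adjusted p = 0.0199), 2.98 ± 0.39 for *Clec4d* (adjusted p = 0.000166), 2.17 ± 0.26 for *Clec5a* (adjusted p = 6.03e-05) and 1.77 ± 0.32 for *Clec12a* (adjusted p = 0.00346). Without IkbkbCA library 3 the difference for *Clec4e* was 3.86 ± 0.48. For these 4 genes the Ikbkb-/- effect was between -0.50 and -0.06. It was 1.84 ± 0.17 for *Clec4n* (adjusted p = 3.18e-06), which was higher in IkbkbCA and lower in Ikbkb-/- microglia than in their controls. It was 1.85 ± 0.29 for *Clec4a2* (adjusted p = 0.00076) and 1.09 ± 0.26 for *Clec4a1* (adjusted p = 0.0266), both of which had been called lower in Ikbkb-/- microglia, a call lost with *Ddx3y* as a covariate, and not called in IkbkbCA microglia. With *Ddx3y* as a covariate in this fit, chosen after seeing the data, the differences were 1.84 ± 0.29 for *Clec4a2* and 1.07 ± 0.26 for *Clec4a1* and 7 members were called; that fit assumes the same relation to *Ddx3y* in both experiments, and within the deletion experiment sex and genotype cannot be told apart. The *Clec4e* call was lost without Ikbkb+/+ library 3 (4.97, adjusted p = 0.0684) and with limma-voom (4.55, adjusted p = 0.287). The *Clec4a1* call was lost without Ikbkb+/+ library 4 (adjusted p = 0.0642), Ikbkb-/- library 3 (adjusted p = 0.0645) or Ikbkb-/- library 4 (adjusted p = 0.0736).

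The PS19 comparison asked how microglia differ in the brain of mice with tauopathy. None of the 8 receptor genes was called (0 higher and 0 lower; edgeR quasi-likelihood test, n = 4 and 4), in a comparison that called 0.0707% of 11323 tested genes higher and 0% lower. Of the 8 members 2 had an unadjusted p under 0.05, as did 977 of all tested genes. DESeq2 and limma-voom called 0 members as well. On simulated counts with the depth and spread of these libraries, this test recovered 7.94% of 2-fold and 83.9% of 4-fold changes. A change of 2-fold or less could thus easily be missed. The median log2 fold change of the members was 0.07, against 0.00 over all tested genes.

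The lowest unadjusted p belonged to *Clec4a2*, at 58.3, 62.0, 77.2 and 77.1 CPM in PS19 and 116, 150, 96.8 and 94.5 CPM in NTG libraries. All PS19 libraries lay below all NTG libraries, as for 5.77% of all tested genes in either direction, and the log2 fold change was -0.73 ± 0.20 (adjusted p = 0.312). *Clec4a3* was 33.3, 41, 52.4 and 41.4 CPM against 58.2, 62.8, 49.8 and 54.5 CPM (-0.42 ± 0.19, adjusted p = 0.571), with PS19 library 3 inside the NTG range. *Clec4a1* was 12.2 to 18.7 CPM in PS19 and 11.1 to 12.8 CPM in NTG libraries (0.41 ± 0.24, adjusted p = 0.665). *Clec5a*, the highest member in these cells, was 104, 65.2, 205 and 182 CPM against 108, 225, 145 and 144 CPM, with overlapping groups and a log2 fold change of -0.16 ± 0.33 (adjusted p = 0.922).

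PS19 library 1 held the highest values of *Clec4n* (33.3 CPM, the other 3 at 14.4 to 16.1 CPM), *Clec12a* (33.1 CPM, the others at 8.05 to 13.5) and *Clec4d* (21.9 CPM, the others at 2.89 to 9.58). Log2 fold changes were 0.33 ± 0.34 for *Clec4n*, 0.41 ± 0.40 for *Clec12a* and 0.30 ± 0.49 for *Clec4d*, and -0.05, -0.19 and -0.36 without this library, so their sign changed when it was left out. *Clec4e* was 1.52 to 5.24 CPM in PS19 and 2.22 to 5.40 CPM in NTG libraries (-0.53 ± 0.50, adjusted p = 0.807). PS19 library 1 also had the most border-associated macrophage markers (455 CPM, the other 7 libraries 186 to 342 CPM) and the fewest granulocyte markers (395 CPM). Granulocyte markers (7 of 7 detected) were 395 to 2403 CPM in PS19 and 1511 to 2092 CPM in NTG libraries, and monocyte markers (6 of 6) 43.6 to 95.0 and 87.8 to 129 CPM. *Xist* was 161 CPM in PS19 library 1 and at most 29.1 CPM in the other 7, although all 8 mice are labelled male. The part of these values in the levels of the receptors was not tested.

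None of the 20 partner genes was called in PS19 microglia by this test (0 of 20), which called 0.0707% of all tested genes higher and 0% lower. DESeq2 called 1 partner. *Fcer1g* (0.08 ± 0.21), *Tyrobp* (0.25 ± 0.26), *Syk* (0.16 ± 0.18), *Ptpn6* (0.21 ± 0.17) and *Card9* (-0.60 ± 0.45) did not pass. Of the 15 other lectin genes tested, *Clec7a* rose, at 291 ± 119 CPM in the PS19 libraries against 74.1 ± 8.84 CPM in the NTG ones, with a log2 fold change of 1.97 ± 0.28 (adjusted p = 0.0195). Dectin-1 is a receptor for β-glucan and a known marker of disease-associated microglia. The call was lost with limma-voom, with age as a covariate, and without PS19 library 1 or any 1 of the 4 NTG libraries. These fits called few genes at all: 0 genes with age as a covariate, and 0.0353% of tested genes higher with limma-voom. Without 1 of these libraries, 0.0337 to 0.0443% of tested genes were called higher.

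In 1 fit of the tau and PS19 libraries, 8.07% of 11852 genes were called for a difference between the effects. The effect of tau fibrils in culture was higher than that of PS19 for 7 of the 8 members. It was 5.20 ± 0.33 higher for *Clec4a2* (adjusted p = 1.38e-09), 4.80 ± 0.35 for *Clec4a1* (adjusted p = 7.58e-09) and 4.55 ± 0.32 for *Clec4a3* (adjusted p = 5.44e-09). The difference was 4.37 ± 0.72 for *Clec4e*, 2.21 ± 0.43 for *Clec12a*, 2.00 ± 0.42 for *Clec4n* and 1.68 ± 0.44 for *Clec5a*, the last of which lost its call without vehicle library 2 (1.58, adjusted p = 0.0525). For *Clec4d* the difference of 1.09 ± 0.49 did not pass (adjusted p = 0.196), but it did without PS19 library 1 (1.83 ± 0.38, adjusted p = 0.00247) and with no filter on low counts (1.17, adjusted p = 0.00889). Levels in the 2 control groups were far apart, at 4.64 CPM with vehicle and 114 CPM in NTG microglia for *Clec4a2*, and at 167 and 8.56 CPM for *Clec4d*.

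The members fell into patterns across the 34 libraries once the mean of each experiment was subtracted. These correlations of log2 CPM are descriptions over libraries that share groups and experiments. *Clec4a2* and *Clec4a3* were most alike (Pearson r = 0.94, n = 34), each also following *Clec4a1* (0.89 and 0.90), whereas *Clec4a3* and *Clec4d* were the least alike (0.22). *Clec4n* and *Clec12a* were at 0.90, *Clec4e* and *Clec12a* at 0.86, and *Clec4e* and *Clec5a* at 0.83. With group means subtracted as well, *Clec4a2* and *Clec4a3* were at 0.55 and *Clec4d* and *Clec12a* at 0.78, and *Clec4a1* and *Clec4a2* at -0.22. Among all genes tested, the gene most like *Clec4a1* was the macrophage gene *Adgre1* (0.94), which encodes F4/80, followed by *Arhgdib* (0.92) and *Rassf4* (0.92). *Clec4a2* was followed by *Tlr1* (0.90) and *Adgre1* (0.89), and *Clec4a3* by the macrophage transcription factor gene *Maf* (0.91). *Clec4e* was most like the acute phase gene *Saa3* (0.93), *Tnip3* (0.91) and the formyl peptide receptor gene *Fpr1* (0.90), and *Clec4d* was most like the properdin gene *Cfp* (0.92), *Tnfaip2* (0.90) and *Saa3* (0.89). *Clec5a* was most like *Lpcat2* (0.92), *Gpr84* (0.91) and *Nadk* (0.90), *Clec12a* most like the kinase gene *Ikbke* (0.92), *Ehd1* (0.92) and *Cfp* (0.91), and *Clec4n* most like *Rassf4* (0.90), *Clec12a* and *Adam17* (0.88).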

How the data were processed

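RNA of 34 microglia libraries had been sequenced from the 3′ end of transcripts (QuantSeq 3′ mRNA-Seq). Per the study's methods, the authors mapped the microglia reads to GRCm38 (GENCODE) on the BlueBee platform with Lexogen's QuantSeq pipeline, and used STAR for the cortex samples. The submitters' processing notes also name RSEM, edgeR and limma, without saying for which samples. The deposited tables hold whole-number counts per gene, 1 table per library, which were used as deposited. The 5 lines for reads not counted on a gene were left out of library sizes. The line for reads outside genes held 12.4 to 38.3%, as a share of reads on genes, outside genes or ambiguous between genes. Reads on the other lines, such as those that map to several places, are not part of this range. Of 47643 gene IDs, 47224 matched GENCODE M21, which gave the symbols. Replicates were checked for duplicates, and 0 of 56 pairs held identical counts. In both IkbkbWT and IkbkbCA, libraries 1 and 2 and libraries 4 and 5 were more alike than all other pairs. Their chi-square per degree of freedom was 3.08 to 4.89, and that of the other pairs 11.0 to 42.0. These groups may thus hold fewer separate cultures than libraries, which would make their p-values too small.

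Each comparison was fitted on its own groups with edgeR 4.0.16 (R 4.3.3): TMM scaling, filterByExpr (minimum count 10, total 15), the quasi-likelihood test and Benjamini-Hochberg adjustment over all genes tested, called at an FDR under 0.05. Differences between effects were an interaction term in 1 fit of both experiments. SE is the log2 fold change divided by the square root of F. Alternatives were other scalings, DESeq2 1.42.0, limma-voom (limma 3.58.1), other filters, covariates, and leaving out each library. Likeness used log2 values with a prior count of 2. Scripts were tested on simulated data.

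The members and gene lists were chosen with earlier results of these data known. Named genes are all 8 members, *Fcer1g*, *Tyrobp*, *Syk*, *Card9*, *Ptpn6* and *Clec7a*, up to 4 called genes with the largest change per list and comparison, the 3 genes most like each member, and *Ikbkb* and *Cx3cr1* as checks of the alleles. *Fyn* with tau fibrils, *Cd72* in IkbkbCA and marker genes were named beyond this rule, after their values were seen. A partner gene that the rule names is not reported here. Promoter sequences are RefSeq's (GRCm38.p6). Intervals of counting error were not used, since each value rests on replicate libraries.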

Additional observations from a re-analysis of the deposited data

Results flagged for a closer look

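Single libraries stood far from the rest of their group in 7 of 64 groups of a gene (Dixon's test at the 95% level, which chance alone passes in about 1 in 20). IkbkbCA library 3 was the highest of its group in *Clec12a* (246 CPM, the next 130), *Clec4d* (785 CPM, the next 349) and *Clec4e* (384 CPM, the next 68.4). IkbkbWT library 3 was the lowest in *Clec4a1* (8.46 CPM, the next 17.5) and the highest in *Clec4d* (72.9 CPM, the next 55). Ikbkb+/+ library 1 was the lowest in *Clec4a2* (26.5 CPM, the next 30.5), and PS19 library 1 the highest in *Clec4n* (33.3 CPM, the next 16.1).

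Effects differed between experiments in 20 of 24 tests of the difference itself, given as differences of log2 fold changes (edgeR, interaction term). Over all tested genes, 9.42% were called for tau fibrils against active IKKβ and 8.07% for tau fibrils against PS19. For active against deleted IKKβ the share was 3.12%. Tau fibrils against active IKKβ gave 1.07 for *Clec12a*, 4.91 for *Clec4a1*, 4.22 for *Clec4a2*, 4.86 for *Clec4a3*, -1.42 for *Clec4d* and 1.34 for *Clec4n*. Tau fibrils against PS19 gave 2.21 for *Clec12a*, 4.80 for *Clec4a1*, 5.20 for *Clec4a2*, 4.55 for *Clec4a3*, 4.37 for *Clec4e*, 2.00 for *Clec4n* and 1.68 for *Clec5a*. Active against deleted IKKβ gave 1.77 for *Clec12a*, 1.09 for *Clec4a1*, 1.85 for *Clec4a2*, 2.98 for *Clec4d*, 5.10 for *Clec4e* (3.86 without IkbkbCA library 3), 1.84 for *Clec4n* and 2.17 for *Clec5a*. In the deletion experiment the calls of *Clec4a1*, *Clec4a2* and *Clec4n* were lost with *Ddx3y* as a covariate, a fit that called 1.56% of all tested genes lower. Leaving out certain single libraries removed some calls of a difference. These were *Clec12a* against active IKKβ, *Clec5a* against PS19, and *Clec4a1* and *Clec4e* for active against deleted IKKβ. Control levels could differ between the experiments compared, as for *Clec4d* and *Clec4n*, and their part in the differences was not tested.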

How the results depend on the processing

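Of 1089 alternative values of the members' log2 fold changes and differences, 1072 kept their side of the threshold and none of the called ones changed sign. Of 544 alternative counts of called genes 507 stayed within 1.5 times the main count. With at least 10 counts required in every library, fewer genes were tested, and the calls fell to 4 members and 3 other lectins higher with tau fibrils, 1 other lectin higher and 1 lower in IkbkbCA, and 2 (against IkbkbCA) and 3 (against PS19) members with a larger tau effect. With *Ddx3y* as a covariate, Ikbkb-/- had 0 members lower, 0 partners higher, 0 partners lower and 0 other lectins lower. That fit called 1.03% of all tested genes higher and 1.56% lower. In PS19 microglia the other lectins called higher were 2 with DESeq2, 0 with limma-voom, 2 without a filter (and 1 lower) and 0 with age as a covariate, and 1 partner was higher with DESeq2 and with no filter. In Ikbkb-/- microglia 4 partners were higher with DESeq2 and 4 with limma-voom, 1 in a fit of 18 libraries, and 2 were lower with no filter. With tau fibrils 2 partners were lower under total-count scaling, and 1 was lower in IkbkbCA with no filter and with library 3 of both groups left out, an alternative chosen after seeing the data. The cause of these other changes was not tested. Leaving out single libraries gave 1 to 2 partners lower with tau fibrils, 0 to 2 other lectins higher in PS19, 1 to 2 partners lower in IkbkbCA, and 1 to 4 partners and 1 to 2 other lectins higher in Ikbkb-/- microglia. No paired analysis was run, because the labels give the libraries no replicate numbers, and those used here only follow the order of the samples. In IkbkbCA and IkbkbWT, oligodendrocyte and neuron markers followed the same library numbers. A fit that blocks by these numbers was not run. Low counts limit *Clec4e* and, with vehicle, *Clec4a2* and *Clec4a3*.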
